A study of Mus musculus with 8 samples.

Results

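The genes described here are 10 markers of mast cells, taken as every row of the deposited table of CAGE tag clusters whose gene symbol was Cpa3, Cma1, Mcpt4, Tpsb2, Kit, Ms4a2, Hdc, Mrgprb1, Mrgprb2 or Gata2. CAGE sequences the capped 5′ ends of RNA, so that a cluster of tags marks a region where transcripts start. Of the 10 genes, 8 had a cluster, and these held 11 of the 84475 distinct clusters in the table. Of all protein-coding genes, 57.2% had a cluster under their current symbol, and 63.3% when older symbols were also counted. No row carried the symbol Ms4a2 or Mrgprb2. The series presents a mouse with lesions of facial skin as a model of atopic dermatitis. The 8 samples were taken on postnatal day 28 from the face of C57BL/6 mice, with 4 samples of lesional skin from mice labelled Nectin-cre(+);Ikk2FL/FL and 4 of non-lesional skin from mice labelled Control. The series text spells the Cre line Nestin-cre. In the lesional group, both copies of Ikk2, which encodes a kinase of the NF-κB pathway, carried sites for excision by the Cre enzyme. The labels do not state the alleles of the control mice, and genotype and lesion cannot be told apart in this design.

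The names of the 8 columns of values in the table match no label of any sample, so these columns were not used. No level of a mast cell gene, no library depth and no difference between lesional and control skin is therefore reported. The results below concern the positions of the start site clusters, which belong to the series as a whole, and the promoter sequences of the same genes. A cluster shows neither the group nor the cell type that it came from.

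Mast cells are tissue-resident immune cells that are common in the dermis. They store histamine, heparin and proteases in granules and release them when IgE bound to its receptor meets antigen, or when peptides and other cationic substances act on receptors of the Mrgpr family. The transcription factor GATA2 acts in the formation and maintenance of these cells, and the receptor tyrosine kinase KIT, with its ligand stem cell factor, supports their survival.

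The promoters of the members were split into 2 sets by CpG count, at the median of all promoters. RefSeq promoter windows, which run from 250 bases before to 50 bases after an annotated start (assembly GRCm38.p6), were matched by symbol for 9 of the 10 genes, with 11 windows in all. Tpsb2 had no entry. In 7 genes, Cpa3, Cma1, Mcpt4, Hdc, Ms4a2, Mrgprb1 and Mrgprb2, the 250 bases before the start held 0 to 3 CpG dinucleotides, against a median of 6 over all 32851 promoters and 14 over promoters of genes with a cluster. Kit and Gata2, with 2 windows each, held 17 to 24. The 2 windows of Kit began 4 bp apart and so are nearly the same sequence. GC content was 37.2 to 51.2% in the CpG-poor genes and 67.2 to 74.0% in the windows of Kit and Gata2. The median over all promoters was 52.4%. GC content is not independent of the CpG count that made the sets, so this gap is no separate support for them. A window with 3 CpG or fewer is common, as 37.8% of all promoters were of that kind.

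The 250 bases before the start are shown for 4 CpG-poor genes, whose start site clusters ranged from narrow to broad, and for the downstream promoter of Gata2, with the highest CpG count among the members. In the first 4 sequences, capitals mark the GATA words, which are the letters GATA with A or T before them and A or G after them and are known to be bound by GATA factors. Capitals also mark TATAAA, the word of the TATA box, and both were searched on either strand. In the last sequence, capitals mark CpG. The windows lie at chr3:20242182-20242431 (Cpa3, minus strand), chr14:56062311-56062560 (Mcpt4, minus strand), chr14:55944676-55944925 (Cma1, minus strand), chr7:48456343-48456592 (Mrgprb1, minus strand) and chr6:88198414-88198663 (Gata2, plus strand) of GRCm38.p6.
Cpa3: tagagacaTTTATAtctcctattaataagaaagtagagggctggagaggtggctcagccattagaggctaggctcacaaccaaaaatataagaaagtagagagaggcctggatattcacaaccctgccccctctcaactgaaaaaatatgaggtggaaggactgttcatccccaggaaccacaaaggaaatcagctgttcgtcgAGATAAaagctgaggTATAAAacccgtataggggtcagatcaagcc
Mcpt4: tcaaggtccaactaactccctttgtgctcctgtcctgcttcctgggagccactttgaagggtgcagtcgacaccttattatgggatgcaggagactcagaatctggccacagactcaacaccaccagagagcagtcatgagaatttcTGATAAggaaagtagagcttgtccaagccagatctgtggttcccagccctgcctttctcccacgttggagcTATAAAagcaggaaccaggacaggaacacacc
Cma1: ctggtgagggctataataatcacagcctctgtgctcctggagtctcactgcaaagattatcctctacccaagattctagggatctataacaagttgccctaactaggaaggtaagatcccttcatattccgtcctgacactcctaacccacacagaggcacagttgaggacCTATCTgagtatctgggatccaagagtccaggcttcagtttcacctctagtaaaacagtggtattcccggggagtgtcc
Mrgprb1: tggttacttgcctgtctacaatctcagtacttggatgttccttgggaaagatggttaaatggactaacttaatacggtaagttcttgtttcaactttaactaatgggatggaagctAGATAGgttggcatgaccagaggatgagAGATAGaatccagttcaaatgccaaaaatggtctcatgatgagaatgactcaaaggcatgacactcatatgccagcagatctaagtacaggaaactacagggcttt
Gata2 promoter 2: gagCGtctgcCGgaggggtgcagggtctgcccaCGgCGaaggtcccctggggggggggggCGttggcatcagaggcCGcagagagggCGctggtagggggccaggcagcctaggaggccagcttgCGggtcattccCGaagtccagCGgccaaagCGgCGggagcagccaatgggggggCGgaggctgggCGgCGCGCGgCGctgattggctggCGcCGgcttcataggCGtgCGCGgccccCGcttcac

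A GATA word was found in the window of all 7 CpG-poor genes and in no window of Kit or Gata2. Of these 4 windows, the 2 of Kit overlap almost wholly. Over all promoters the share was 29.8%. It was 45.2% among promoters with 3 CpG or fewer and 8.53% among those with 17 or more, so the words are more common in CpG-poor windows in general. Ms4a2, which encodes the beta chain of the IgE receptor, had the most, with 3 words beginning at positions -224, -37 and -11, counted in bases before the RefSeq start. Mrgprb1 had 2, at -134 and -106. In Cpa3 the word AGATAA began at -46, and in Mcpt4 the word TGATAA began at -103, both on the gene's strand. Words on the opposite strand began at -48 in Mrgprb2 and at -79 in Cma1. Hdc had its only word at -221, outside the nearest 200 bases. These matches are letters in a window of the annotation, and whether a GATA factor occupies them was not tested.

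The TATA word lay at the usual distance from the start in Cpa3, at -31, and in Mcpt4, at -32. These were the only members with TATAAA on the gene's strand beginning 20 to 40 bases before the start, a feature of 1.99% of all promoters. Both genes are CpG-poor, and the share among CpG-poor promoters alone was not computed. Cpa3 also held TATAAA on the opposite strand at -242. With either strand and the whole window, TATAAA was found in 2 of the 9 genes and 13.6% of all promoters. The E-box word CANNTG, a palindromic pattern bound by factors with a helix-loop-helix domain, was found in 7 of the 9 genes and in 72.3% of all promoters, a share near that of the members. Which factors could bind the E-box words of the members was not tested.

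**Figure D1:**
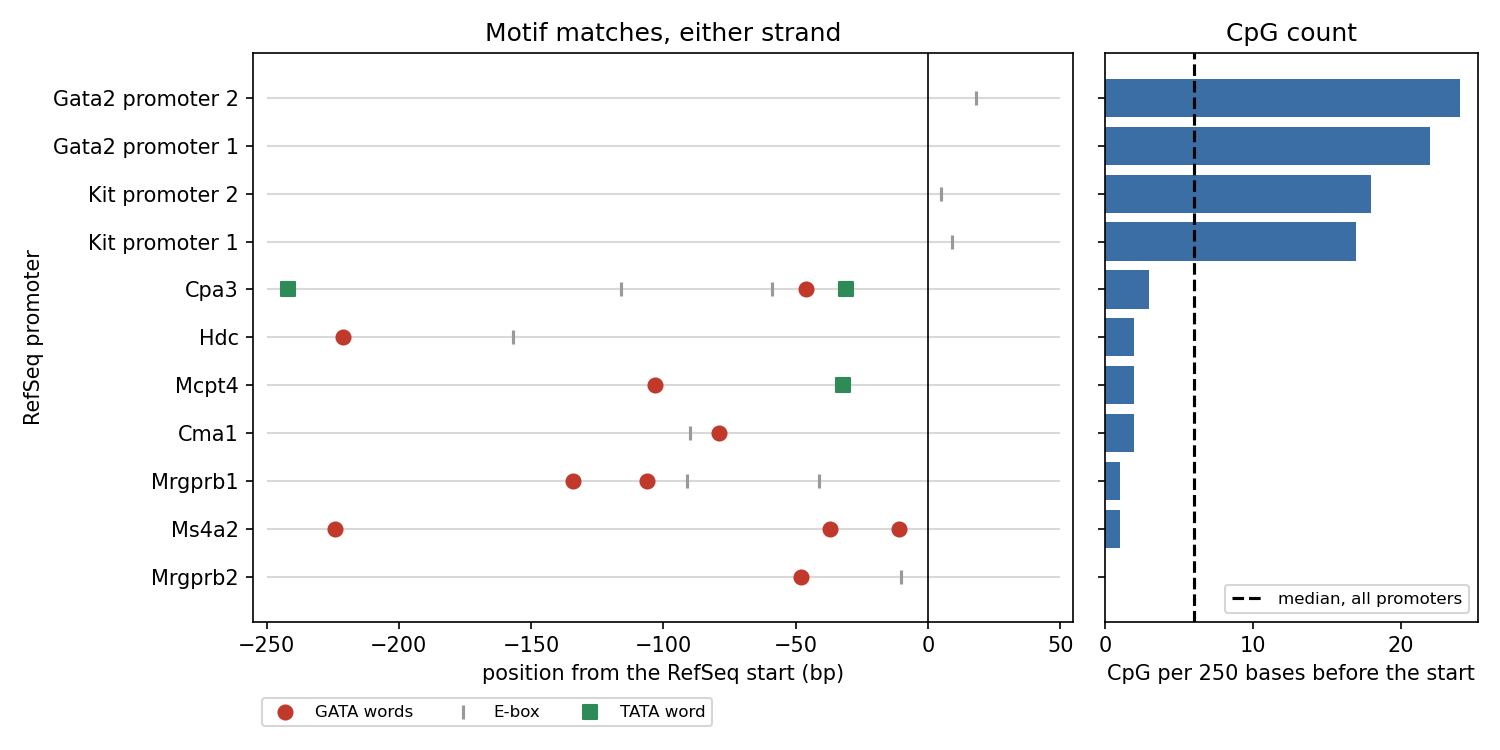
Left, positions of GATA words (red circles), E-box words (grey ticks) and TATAAA (green squares) on either strand from 250 bases before to 50 bases after the RefSeq start of each member promoter. Right, number of CpG dinucleotides in the 250 bases before the start, with the median of all promoters, 6, as a dashed line; the 7 CpG-poor promoters hold 0 to 3 and carry every GATA word.

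The granule proteases had start site clusters of very different width. Positions are those of mm9 as the authors deposited them, and span means the distance from a cluster's start to its end. Cpa3, which encodes carboxypeptidase A3, an enzyme that trims peptides in mast cell granules, had 1 cluster on chromosome 3 (minus strand), from 20141890 to 20142098. Its span of 208 bp was the widest among the members and exceeded the widest cluster of 97.1% of all 16094 symbols in the table. Cma1, which encodes a chymase, had 1 cluster of 140 bp on the minus strand of chromosome 14, from 56563373 to 56563513. The widest cluster was narrower than this in 65.9% of symbols.

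Mcpt4, which encodes another chymase, had only narrow clusters. Both lay on the minus strand of chromosome 14, the upstream one from 56681199 to 56681201 with a span of 2 bp and the downstream one from 56681142 to 56681151 with a span of 9 bp. A gap of 48 bp separated them. The widest cluster was broader than 9 bp in 91.2% of symbols. Among all clusters with a symbol, widest or not, 46.9% were narrower than 9 bp. Mcpt4 and Cpa3 thus stood at opposite ends of the members in span. Both carry the TATA word shown above at nearly the same distance from the annotated start in GRCm38. Whether their mm9 clusters lie at that start was not tested. The depth behind a cluster was not analysed, and whether span follows the number of tags was not tested.

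Tpsb2, which encodes a tryptase, had 2 clusters on chromosome 17 (plus strand). The upstream cluster, from 25503201 to 25503267, spanned 66 bp, and the downstream cluster, from 25503461 to 25503499, spanned 38 bp. The gap between them was 194 bp and their outer edges lay 298 bp apart. GENCODE M21 gives 3 different starts for the protein-coding transcripts of Tpsb2, the outermost 247 bp apart in GRCm38. The distance between the annotated starts thus falls within the range that the pair of clusters allows, from 194 to 298 bp. Positions were not carried from GRCm38 to mm9, and the exons in which these clusters lie are not given here.

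Among the receptors and enzymes of mast cell identity, Kit had 1 broad cluster of 153 bp on chromosome 5 (plus strand, 75970947 to 75971100). This was wider than the widest cluster of 72.0% of symbols. Mrgprb1, a member of the Mas-related receptor family, had 1 cluster of 95 bp on the minus strand of chromosome 7, from 55711616 to 55711711. Hdc, which encodes histidine decarboxylase, the enzyme that makes histamine, had 1 cluster of 38 bp on the minus strand of chromosome 2, from 126444384 to 126444422. The widest cluster was broader than that of Hdc in 84.1% of symbols.

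Gata2 had 2 clusters far apart on chromosome 6 (plus strand). The upstream one, from 88143707 to 88143717, spanned 10 bp, and the downstream one, from 88148656 to 88148703, spanned 47 bp. They were separated by 4939 bp, the largest gap within a member. Gata2 is known to be transcribed from a distal promoter used mainly in blood and neural cells and from a general promoter closer to the coding exons. The starts of the 2 RefSeq promoter windows were 4773 bp apart and the protein-coding starts in GENCODE M21 were 4443 bp apart, both shorter than the distance between the clusters, which ran from 4939 bp (inner edges) to 4996 bp (outer edges). Which annotated start each cluster belongs to was not settled. Both RefSeq windows were rich in CpG, with 22 in the upstream and 24 in the downstream window.

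**Figure D2:**
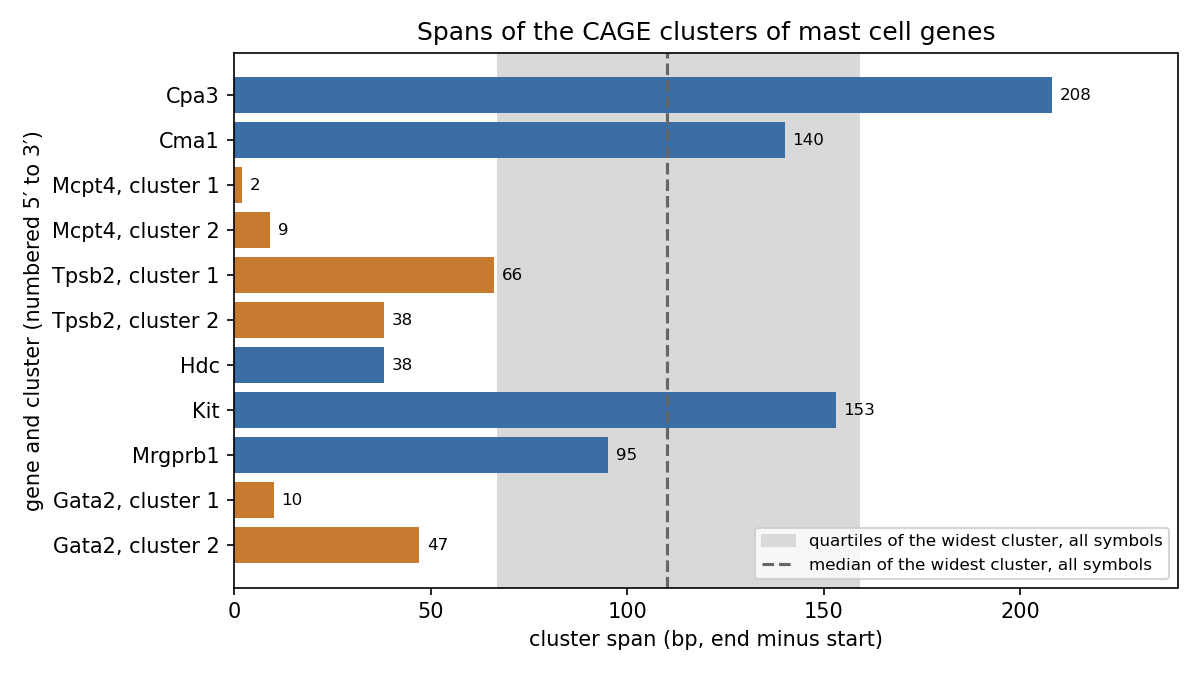
Spans in bp of the 11 clusters of the 8 mast cell genes, with blue bars for genes with 1 cluster and orange bars for genes with 2, numbered from 5′ to 3′. The grey band and dashed line give the quartiles, 67 and 159 bp, and the median, 110 bp, of the widest cluster of all symbols; Cpa3 lies above the band and Mcpt4, at 2 and 9 bp, far below it. The median span over all clusters with a symbol, widest or not, is 11 bp and is not drawn.

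Over the 8 genes with a cluster, 5 had 1 and 3 had 2, with a median of 1, against a median of 2 over all symbols, of which 45.7% had 1. Their widest clusters had a median span of 80.5 bp, against 110 bp over all symbols, and 3 of the 8 exceeded that value. A widest span is a maximum and can rise with the number of clusters, for which these medians were not matched. None of the 11 clusters had been given to more than 1 gene. For 9 clusters of 7 genes, the strand could be set beside that of the RefSeq entry on the same chromosome, and it was the same for all 9. Over the 10373 symbols that could be compared in this way, the share was 99.9% of 32310 clusters, so this agreement is not particular to the members.

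Ms4a2 and Mrgprb2 were absent also under the 6 and 2 older symbols that RefSeq lists for them. Ms4a2 lies in a family cluster of membrane-spanning genes on chromosome 19. The nearest genes with a cluster on its sides, by the gene order of GRCm38, were Ms4a6d and Mrpl16. The 165507 bp between them in the table held no cluster at all. Mrgprb2, the mast cell receptor for cationic peptides, lies near Mrgprb1 on chromosome 7. Between Mrgprb1 and Zdhhc13, the next gene with a cluster, were 3 clusters without a symbol, all on the minus strand, which is also the strand of Mrgprb2. The nearest of these began 201792 bp from the start of the Mrgprb1 cluster and spanned 87 bp, and the widest spanned 192 bp. In GRCm38 the RefSeq starts of Mrgprb1 and Mrgprb2 are 101744 bp apart, and the table held no cluster at that spacing in mm9. The labels do not say how clusters were called, and an absent cluster does not show that a gene was silent.

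The proteases lie in gene clusters of related copies, and several neighbours were also listed. At the chymase locus, clusters were read in a fixed window around Cma1. They ran from Cma1 through Cma2, Gm5801, Mcpt1, Mcpt2, Mcpt4 and Ctsg to Gzmc over 290116 bp, an end set by the window. Apart from the 140 bp cluster of Cma1, no cluster in this stretch spanned more than 9 bp. Such small spans are common, as the median over all clusters with a symbol was 11 bp. Cma2 spanned 6 bp, Mcpt1 and Mcpt2, known as proteases of mucosal mast cells, spanned 4 bp each, and Ctsg, the gene of cathepsin G, spanned 3 bp. Mcpt9, also of this locus, had no cluster, nor did Mcpt8, a protease of basophils. At the tryptase locus, Tpsab1, listed by RefSeq as a transcribed pseudogene in this reference strain, had a cluster of 4 bp on the opposite strand 20691 bp from Tpsb2. Tpsg1, the gene of a transmembrane tryptase, had a cluster of 19 bp at 2760 bp on the other side.

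How far the 5′ ends of relatives can be told apart was measured as the fewest differences between the first 50 bases of a GENCODE M21 transcript of the member and any stretch of a transcript of its relative. Mcpt4 was closest to Mcpt9, with 5 differences, and to Cma2, with 6, and differed from Mcpt2 at 14 and from Mcpt1 at 16. Cma1 differed from each of 7 relatives at 18 or more. Tpsb2 differed from Tpsab1 at 15, and Mrgprb1 from Mrgprb2 at 11. Of the members compared, Mcpt4 thus had the closest relatives at the 5′ end, and whether its clusters hold tags of those relatives was not tested. Neither the tag length nor the treatment of tags with several matches is stated in the labels.

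**Figure D3:**
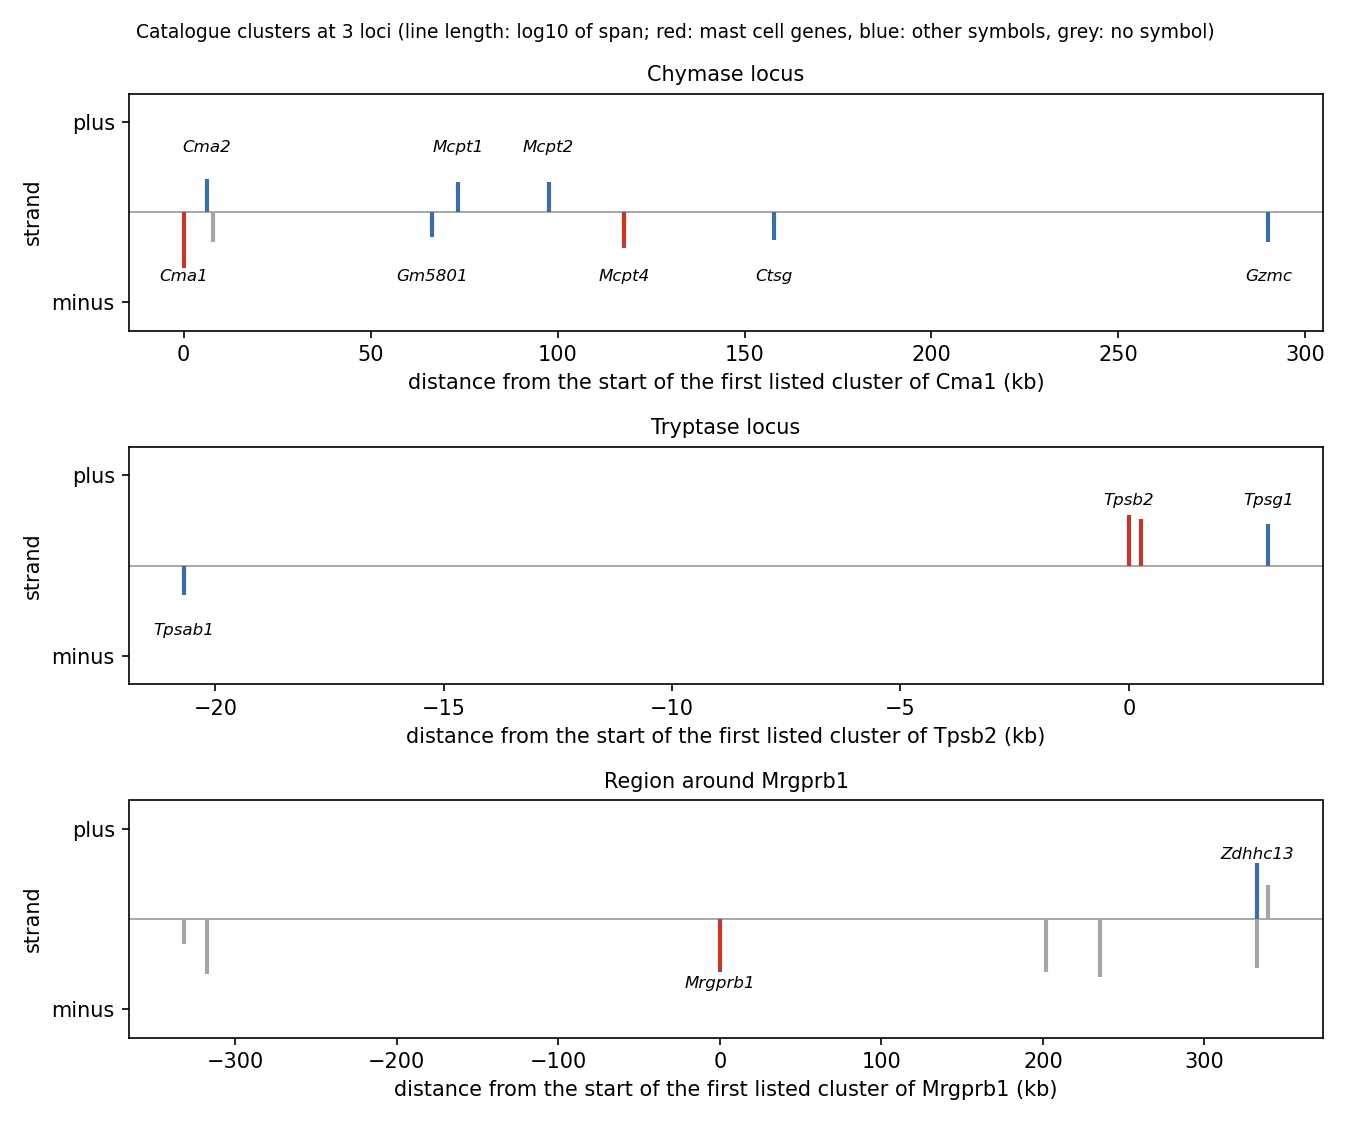
Clusters of the catalogue at the chymase locus, the tryptase locus and around Mrgprb1, by distance in kb from the lower end of the first cluster of Cma1, Tpsb2 or Mrgprb1. Lines above and below the axis are plus and minus strand, their length rises with the log10 of the span, and red, blue and grey mark members, other symbols and clusters without a symbol; Mrgprb1 has no other cluster within 201697 bp.

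Members differed in their distance from other start sites. The nearest cluster that belonged to another gene or to none was a median of 44448 bp away over the 8 genes, against 6186 bp over all symbols, and 6 of the 8 exceeded that value. The upper quartile of all symbols, 22365 bp, was exceeded by 4 of the 8. Mrgprb1, with its nearest neighbour at 201697 bp, was farther from one than 97.9% of symbols. Gata2 stood at 105350 bp, Cpa3 at 86753 bp and Kit at 68714 bp, and these 4 genes had no other cluster within 30000 bp on either side. Tpsb2, at 2760 bp, and Cma1, at 6132 bp, were the closest to a neighbour, in both cases a related protease gene.

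Of 38 other genes of the mast cell pathway, 29 had a cluster (76.3%), against 63.3% of all protein-coding genes. This order turned when spans under 10 bp were left out, as 20 of the 38 (52.6%) then had a cluster, against 59.9% of all protein-coding genes. By role, counting any span, all 4 eicosanoid enzymes had one, with widest spans of 72 bp for Alox5, 88 bp for Ltc4s, 140 bp for Alox5ap and 190 bp for Hpgds, the prostaglandin D synthase of mast cells. All 5 genes of granule content and amines had one, among them Srgn, the proteoglycan core that packs the granule proteases, at 91 bp, Slc18a2, the transporter that loads amines into granules, at 67 bp, and Tph1, the enzyme of serotonin synthesis, at 2 bp. For the IgE receptor and its signalling, 6 of 7 were listed. Fcer1g, the gamma chain shared with other Fc receptors, had a cluster of 129 bp, whereas Fcer1a, the chain that binds IgE, had none, as did Ms4a2.

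Of the transcription factors and growth factor, 4 of 5 had a cluster. Kitl, the ligand of KIT, had 1 of 217 bp, Mitf had 3 clusters with a widest span of 102 bp, and Gata1 had none. Hrh1 was the only 1 of 4 histamine receptor genes with a cluster, of 68 bp. The other serine proteases stood at 5 of 8, and their widest clusters spanned 3 to 19 bp. Of the serine proteases among the members, Mcpt4, at 9 bp, lay within this range, and Tpsb2, at 66 bp, and Cma1, at 140 bp, lay above it. Il1rl1, the receptor of IL-33, had 2 clusters, of 13 and 5 bp.

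Some members are also transcribed in other cells of skin, and the markers of those cells were looked up. Kit is a gene of melanocytes too, and all 6 melanocyte genes had a cluster, with widest spans from 13 bp for Sox10 to 194 bp for Tyr. Hdc is also transcribed in neutrophils and basophils. All 4 neutrophil genes had a cluster, with widest spans of 138 bp for S100a9, 124 bp for Cxcr2, 37 bp for Retnlg and 9 bp for S100a8. Of the 4 basophil genes, Cd200r3 and Il4 had a cluster, of 2 and 4 bp, and Mcpt8 and Prss34 had none. None of the 4 eosinophil genes, Prg2, Epx, Siglecf and Ear1, had a cluster. Of all protein-coding genes, 63.3% had a cluster, and a cluster of a marker does not show which cell type it came from. The part of melanocytes, neutrophils and basophils in the clusters of Kit and Hdc was not tested.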

How the data were processed

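CAGE libraries were made from total RNA of 8 facial skin samples. The deposited table has 1 row per tag cluster and gene, and its clusters and gene symbols were made by the authors by steps not given in the sources used here. The submitters' processing notes name BWA, HISAT2 and mm9. The 8 value columns were not used, so the planned tests between groups were not run. Whether deposited starts count from 0 or 1 is not stated. Rows with the same position counted as 1 cluster. Members were matched by exact symbol, and listed genes and all protein-coding genes also by older symbols in RefSeq (GRCm38.p6), which placed Syk under Sykb. Motifs were counted on both strands with overlaps kept, and the motif search was tested on simulated data. Distances between annotated starts were taken within 1 build only. The first 50 bases of transcripts were compared with edlib 1.3.9, and other steps used Python 3.11.15 and pandas 2.3.3. The text names the 10 members, a list of 38 pathway genes, markers of other cell types and neighbours of the members. The members and lists were chosen with earlier results of these data known, and the pathway roles, the CpG counts and the comparison of relatives were added after the table was seen. No test was made, and no value has a replicate error.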

Additional observations from a re-analysis of the deposited data

How the results depend on the processing

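Counting clusters of at least 10 bp left 9 of the 11 member clusters and 7 of the 8 genes, as both clusters of Mcpt4 were narrower, and 20 of the 38 pathway genes. The pathway share of 52.6% was then below the 59.9% of all protein-coding genes, whereas with clusters of any span it was above them, at 76.3% against 63.3%. Counting table rows, or only clusters given to 1 gene, gave 11 clusters and 8 genes again. With current symbols alone the pathway list stood at 28 and all protein-coding genes at 57.2%. In the 200 bases before the start, GATA words were found in 6 of 9 genes (21.4% of all promoters), E-box words in 5 (58.2%) and TATAAA in 2 (9.96%). Among promoters of genes with a cluster, a background chosen after seeing the data, the whole-window shares were 19.2% for GATA, 65.3% for the E-box and 8.45% for TATAAA. No paired analysis was possible because no column of values carries a replicate number from the labels. For the same reason other tools, normalizations, filters on low values and pseudocounts, and fits leaving out replicates, were not run, and what depth limits was not analysed.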
